A study of Mus musculus with 19 samples.

Results

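Peroxisomes are organelles bounded by a single membrane in which liver cells shorten very long, branched and bile acid side chains, remove glyoxylate and hydrogen peroxide, and begin the synthesis of ether lipids. They import folded enzymes through receptors and a membrane complex built from peroxins, the products of the Pex genes, and grow and divide under the control of further peroxins. In mouse liver many genes of peroxisomal fatty acid breakdown are targets of the nuclear receptor PPARα, which acts as a partner of RXR. The 36 genes described here were taken by symbol from the 52110 named entries of the expression table: 13 peroxins, and 23 enzymes and membrane transporters of the organelle. Each had an entry, and 35 had a mean of at least 1 FPKM (sequenced fragments divided by gene length and by the depth of the library) over all samples and were tested. Far1, which makes the fatty alcohol for ether lipids, did not reach that level.

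The RNA came from livers of wild-type mice in 4 groups that combined 2 diets with 2 procedures. NC sham mice ate normal chow and had a sham procedure (n = 5), and NC RIC mice ate chow and had remote limb ischemic conditioning, in which blood flow to a limb is interrupted and restored (n = 5). CDAHFD sham mice (n = 5) and CDAHFD RIC mice (n = 4) had the same procedures on CDAHFD, a diet rich in fat and free of choline, with its protein replaced by amino acids, which is used to produce steatohepatitis in mice. The labels give no strain, age, sex, time on diet or number of conditioning sessions. They also do not tie each sample to an animal of its own, so the spread behind every p-value may be technical.

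Estimated depth ran from 15940000 to 26440000 reads a sample, and correlations of log2 values within a group were 0.965 to 0.987. Group membership by diet dominated the variation (75.6% on the first principal component). CDAHFD sham samples 2 and 5 stood apart from their group on principal component 4, which held only 2.26% of the variation. Their scores were 20.6 and 16.6, where the other 3 lay between -9.3 and -3.8. Results on that group are given without them where a call is lost. Other samples also stood apart on small components, such as CDAHFD RIC 1 and 3 at 18.2 and -14.8 on component 5 (1.65%). Hepatocyte markers were abundant in every sample, led by Alb, which encodes albumin, at 21529 to 55778 FPKM. Other cells were much more visible on the CDAHFD. Over all tested genes, 63.9% were called higher and 10.3% lower in CDAHFD sham than in NC sham livers. The rule for every call below is an adjusted p under 0.05, by limma with Benjamini-Hochberg adjustment. A peroxisomal gene that was level between the diets therefore lay below most of the tested genes. Some of those were tested only because they were high on the CDAHFD, and their part in the 63.9% was not measured.

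Differences below are means on the log2(FPKM + 1) scale, with a standard error (SE) from the fit over all 19 samples, and levels are FPKM, which corrects for gene length. Sequences are shown for the 4 genes that had both a called interaction of conditioning with diet, described below, and a RefSeq promoter entry. Of these interaction calls, those of Hacl1 and Pex11g held in every alternative, while those of Abcd3 and Pex14 lay near the threshold. Each run is the 250 bases before a RefSeq transcript start (assembly GRCm38.p6, minus strand in all 4). Capitals mark AGGTCA, the core to which PPARα and other nuclear receptors bind. By the GENCODE gene bounds, Hacl1 starts further upstream, at 31641286, so its window lies wholly inside the gene. The Pex11g and Pex14 windows overlap their genes in part.
Hacl1 (chr14:31640966-31641215): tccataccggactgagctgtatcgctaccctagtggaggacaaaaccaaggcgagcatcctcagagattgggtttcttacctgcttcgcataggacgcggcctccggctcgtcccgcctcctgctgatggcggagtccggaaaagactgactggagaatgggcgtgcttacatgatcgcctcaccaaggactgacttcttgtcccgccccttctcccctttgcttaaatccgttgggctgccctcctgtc
Pex11g (chr8:3467649-3467898): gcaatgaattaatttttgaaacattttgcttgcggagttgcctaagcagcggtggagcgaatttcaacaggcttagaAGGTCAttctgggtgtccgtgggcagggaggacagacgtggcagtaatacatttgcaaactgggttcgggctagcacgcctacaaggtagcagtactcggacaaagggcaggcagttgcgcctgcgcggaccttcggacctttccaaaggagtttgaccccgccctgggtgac
Abcd3 (chr3:121815303-121815552, 1 of 2 windows of this gene): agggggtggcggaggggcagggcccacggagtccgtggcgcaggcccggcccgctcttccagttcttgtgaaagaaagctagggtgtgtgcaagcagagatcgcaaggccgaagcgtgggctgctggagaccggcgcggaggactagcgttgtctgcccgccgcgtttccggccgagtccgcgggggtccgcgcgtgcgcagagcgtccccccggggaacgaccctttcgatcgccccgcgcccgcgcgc
Pex14 (chr4:149099844-149100093): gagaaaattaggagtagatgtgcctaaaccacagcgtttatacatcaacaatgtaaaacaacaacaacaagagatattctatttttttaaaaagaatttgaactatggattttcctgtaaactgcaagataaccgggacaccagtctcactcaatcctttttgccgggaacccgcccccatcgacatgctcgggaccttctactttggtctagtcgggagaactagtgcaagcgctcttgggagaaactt
Among these 4, the core was found in the Pex11g window only, on the printed strand, beginning 173 bases before the start. Of 29 members with an entry (34 windows), 2 held it, Pex11g and Scp2, against 14.02% of all 32851 windows. No member window held 2 AGGTCA copies spaced by 1 base with up to 2 mismatches on either strand, a pattern found in 3.24% of all windows. These counts describe only letters within 250 bases, and an arrangement further away was not looked for.

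**Figure D1:**
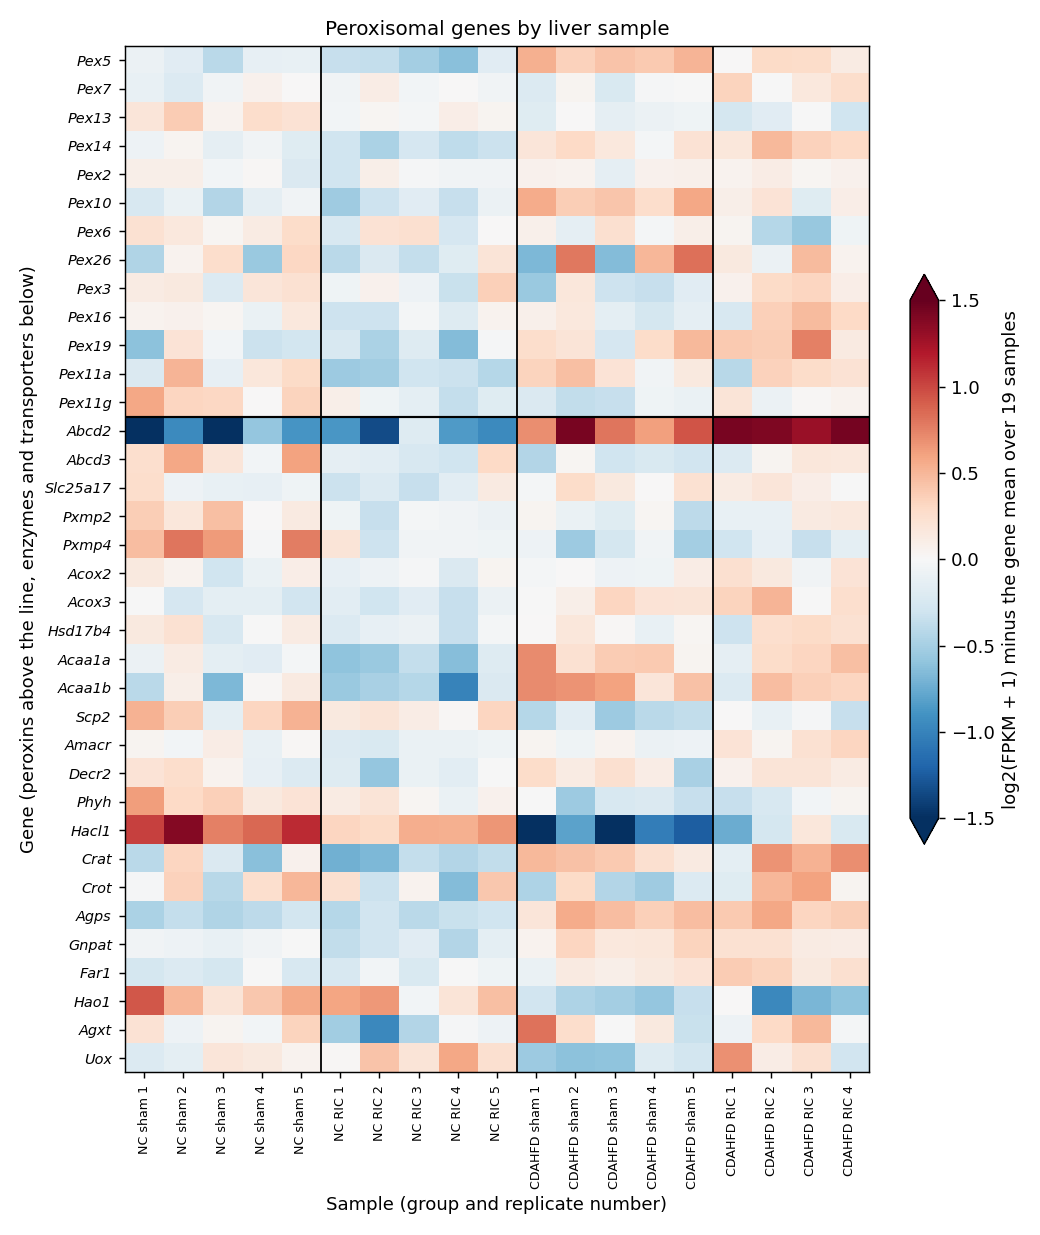
Each row is a peroxisomal gene and each column a liver sample; colour gives log2(FPKM + 1) minus the gene's mean over 19 samples. Abcd2 and Agps are high in the CDAHFD samples, and Hacl1 is high in the NC samples and low in CDAHFD sham.

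The question of the diet comparison in sham mice is how a steatohepatitis diet alters peroxisomal gene expression without conditioning. Of the 35 genes 11 were called higher and 11 lower in CDAHFD sham than in NC sham livers, and 13 did not pass, beside 74.2% of all tested genes called (63.9% higher and 10.3% lower). The peroxins split into 4 higher, 3 lower and 6 not passed, and the enzymes and transporters into 7, 8 and 7. Among the higher peroxins, Pex10 was under 1 FPKM in both chow groups and was tested only because of its CDAHFD values; without it 10 genes were higher. The median log2 difference of the 35 genes was 0.01, against 0.45 for all tested genes, and 29 of the 35 lay below that median. All tested genes include some that, like Pex10, were tested only because of their CDAHFD values. How far such genes raise the 0.45 and the 63.9% was not tested. The number of members that count as lower depends on the scaling. Median-ratio scaling, which places the median gene at 0.00, called 3 members higher and 25 lower, and quantile normalization called 4 and 19, so the share of higher calls fell from 11 of 22 to 3 of 28 and 4 of 23. Over all genes the same scalings gave 3227 higher and 3222 lower, and 3116 and 3428, in place of 6762 and 1090.

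Of the 22 diet calls 10 kept their side of the threshold in every alternative scaling, filter, pseudocount and left-out sample that was run: Abcd2 and Agps rose, and Pex13, Pex11g, Abcd3, Pxmp2, Pxmp4, Hacl1, Hao1 and Uox fell. The members furthest from 0 were Hacl1 and Abcd2, and they moved in opposite directions.

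**Figure D2:**
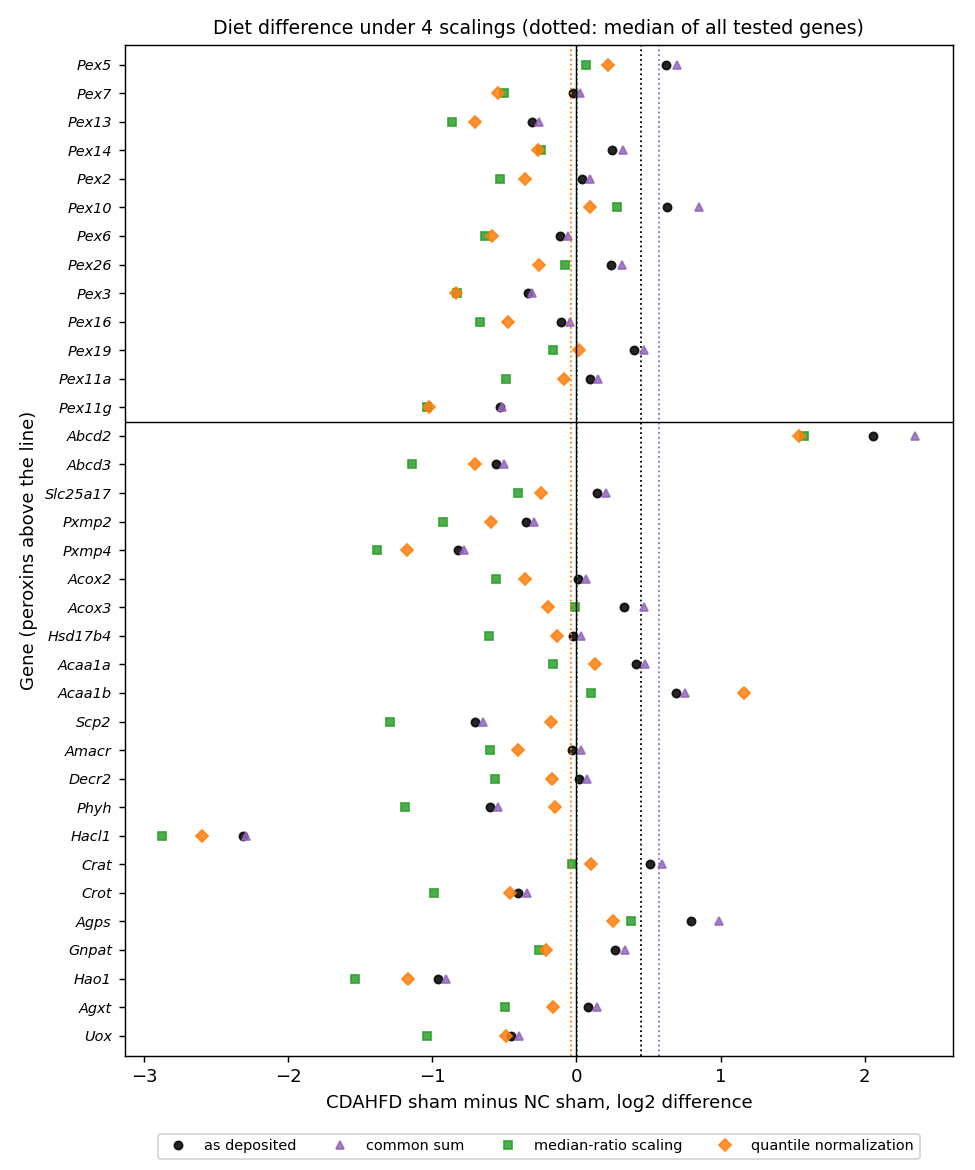
Points give the log2 difference of CDAHFD sham minus NC sham for 35 genes as deposited and under 3 other scalings, and dotted lines give the median of all tested genes under each. Hacl1 is below and Abcd2 and Agps are above 0 under all 4, while Pex14, Acox3 and Gnpat change sign.

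Alpha-oxidation is the removal of 1 carbon from phytanic acid and other branched or hydroxylated fatty acids. Its enzymes among the members, Hacl1 and Phyh, were both called lower on the CDAHFD, beside 10.3% of all tested genes. Hacl1, the lyase that cleaves 2-hydroxyacyl-CoA (chr14:31598730-31641286, minus strand, 19 merged exons; mm10), stood at 88.5, 113, 73.2, 79.0 and 94.8 FPKM in the 5 NC sham samples and at 12.9, 24.3, 12.7, 20.4 and 17.6 in the 5 CDAHFD sham samples. Every CDAHFD sham sample was below every NC sham sample, and the group mean was 5.10-fold lower (log2 difference -2.31, SE 0.18, adjusted p = 1.11e-09). Of its exonic bases 31.14% also belong to Gm49387 on the same strand, a gene without an entry among the deposited values, so reads from the shared part cannot be told apart. Phyh, the hydroxylase of the step before it, went from 885 ± 121 FPKM (SD, n = 5) in NC sham to 584 ± 80.1 in CDAHFD sham (log2 difference -0.60, adjusted p = 6.62e-05). Quantile normalization removed that call (adjusted p = 0.18).

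The transporters moved in both directions. Abcd2, an ABC transporter of very long chain and polyunsaturated acyl-CoAs, was 0.845, 2.38, 1.18, 3.36 and 2.55 FPKM in NC sham and 9.62, 16.5, 10.4, 8.97 and 11.6 in CDAHFD sham. No sample overlapped between the groups, and the mean was 5.53-fold higher (log2 difference 2.06, SE 0.22, adjusted p = 1.09e-07). Abcd3, its relative for branched-chain and bile acid precursors, was lower, at 134, 169, 129, 110 and 173 FPKM in NC sham against 83.2, 115, 91.9, 96.7 and 92.6 in CDAHFD sham, with the lowest NC sham sample within the CDAHFD sham range (log2 difference -0.56, SE 0.13, adjusted p = 0.0010). Pxmp4, a peroxisomal membrane protein, was 39.1, 49.5, 44.3, 27.7 and 48.4 FPKM in NC sham and 26.6, 18.9, 23.2, 26.9 and 19.4 in CDAHFD sham. Those groups also did not overlap, although NC sham sample 4 lay close to the CDAHFD sham values (log2 difference -0.82, SE 0.14, adjusted p = 3.41e-05). Pxmp2, a pore of the peroxisomal membrane, fell by 0.35 (adjusted p = 0.00516). Slc25a17, which carries cofactors across the membrane, did not pass (15.5 ± 1.97 and 17.2 ± 1.7 FPKM, SD, n = 5 each).

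Genes of peroxisomal beta-oxidation, which shortens acyl-CoAs in cycles of oxidation, hydration, dehydrogenation and cleavage, held 3 higher and 1 lower call among 8, beside 63.9% of all tested genes higher and 10.3% lower. The thiolases that cleave straight chains rose: Acaa1b went from 538 ± 123 to 857 ± 122 FPKM (SD, n = 5 each; log2 difference 0.69, adjusted p = 0.00146), and Acaa1a by 0.41 (adjusted p = 0.00665). The thiolase for branched chains and bile acid precursors, Scp2, went down from 1158 ± 199 to 703 ± 70.4 FPKM (SD, n = 5 each; difference -0.71 on the log2 scale, adjusted p = 2.05e-05), the largest change in FPKM of any member. Quantile normalization left Scp2 at -0.18 (adjusted p = 0.203). Some of these genes have near copies. Acaa1b and its relative Acaa1a shared 30.48% and 12.92% of their 50-base stretches with other genes. Scp2 shared 29.70% with the pseudogene Scp2-ps2, listed at 252 ± 31.4 FPKM in NC sham and 199 ± 10.6 in CDAHFD sham (SD, n = 5 each). The split of reads is therefore uncertain for Acaa1b, Acaa1a and Scp2. Acox3, an oxidase of branched chains, had 1.13 ± 0.162 FPKM in NC sham and 1.68 ± 0.233 in CDAHFD sham (log2 difference 0.33, adjusted p = 0.00413). Median-ratio scaling took Acaa1a and Acox3 to -0.16 and -0.01 and Acaa1b below the threshold (adjusted p = 0.585). Acox2, an oxidase of bile acid precursors, Hsd17b4, the D-bifunctional protein of the middle steps, Amacr, a racemase of branched chains, and Decr2, a reductase of unsaturated chains, differed by -0.03 to 0.02 and did not pass.

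Ether lipid synthesis begins with Gnpat, an acyltransferase, and Agps, which replaces the acyl chain with an alkyl chain. Both were called higher, beside 63.9% of all tested genes. Agps read 1.5, 1.71, 1.54, 1.65 and 1.88 FPKM in NC sham and 2.95, 4.13, 3.79, 3.46 and 3.78 in CDAHFD sham, without overlap (log2 difference 0.80, SE 0.08, adjusted p = 2.85e-08). Gnpat rose by 0.27 (adjusted p = 0.00297) as deposited, less than the median of all tested genes, 0.45. It was at -0.26 and -0.21 under median-ratio and quantile scaling. Far1 had 0.0943 ± 0.0878 FPKM in NC sham and 0.340 ± 0.103 in CDAHFD sham (SD, n = 5 each), levels at which single reads weigh heavily.

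Hao1, which oxidises glycolate to glyoxylate, was 136, 100, 80.9, 94.3 and 106 FPKM in NC sham and 58.0, 51.3, 49.3, 46.9 and 55.3 in CDAHFD sham. All CDAHFD sham samples were lower (log2 difference -0.96, SE 0.17, adjusted p = 3.89e-05). Agxt, which converts glyoxylate to glycine, did not pass (60.6 ± 7.56 and 66.2 ± 20.8 FPKM, SD, n = 5 each). Uox, the urate oxidase that mice keep and humans lack, read 218, 227, 285, 277 and 261 in NC sham and 171, 163, 165, 220 and 207 in CDAHFD sham. The 2 groups met only at the lowest NC sham sample and the highest CDAHFD sham sample (log2 difference -0.45, SE 0.15, adjusted p = 0.0109). Of the carnitine acyltransferases, which move shortened chains out of the organelle, Crat rose by 0.51 (adjusted p = 0.0104) and Crot, at 210 ± 48.5 and 159 ± 41.6 FPKM, did not pass. The Crat difference was -0.03 under median-ratio scaling.

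Among the peroxins, the receptor Pex5, which takes up enzymes with the common carboxy-terminal signal, rose from 14.1 ± 1.31 to 22.1 ± 1.25 FPKM (SD, n = 5 each), without overlap (log2 difference 0.62, adjusted p = 5e-06). Median-ratio scaling left it at an adjusted p of 0.472. Pex7, the receptor for the amino-terminal signal, differed by -0.02 and did not pass. The docking peroxins parted: Pex13 fell by 0.31 (adjusted p = 0.00087) and Pex14 rose by 0.25 (adjusted p = 0.00713), which became -0.25 and -0.27 under median-ratio and quantile scaling. Pex10, a RING ubiquitin ligase that recycles receptors, rose from 0.955 ± 0.200 to 2.02 ± 0.273 FPKM and passed the filter on low values through the CDAHFD groups. Its partner Pex2 and the export ATPase genes Pex6 and Pex26 did not pass. Pex26, the membrane anchor of that ATPase, read 0.425, 2.95, 0.45, 2.23 and 3.03 FPKM in the CDAHFD sham samples, with samples 2 and 5 the highest. Of the membrane assembly genes, Pex19, the carrier of membrane proteins, rose by 0.40 (adjusted p = 0.0308), its membrane receptor Pex3 fell by 0.34 (adjusted p = 0.0273) and Pex16 did not pass. The Pex3 and Pex19 calls were each lost in several alternatives (highest adjusted p 0.085 and 0.94). Without CDAHFD sham samples 2 and 5 the calls of Pex14 and Pex19 were lost and the other 20 of the 22 remained. Pex11g, a peroxin of organelle division, fell by 0.53 (SE 0.10, adjusted p = 0.000123), and Pex11a, its PPARα-responsive relative, was at 73.7 ± 15.4 and 77.8 ± 10.4 FPKM and did not pass.

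Beside these differences, markers of other cells moved with the diet. Summed macrophage markers were 80.1 to 106 FPKM in NC sham and 963 to 1188 in CDAHFD sham, stellate cell markers 21.1 to 37.3 and 136 to 257, cholangiocyte markers 16.9 to 35.9 and 149 to 493, endothelial markers 12.4 to 28.2 and 28.2 to 47.2 and neutrophil markers 0.27 to 0.82 and 14.6 to 37.8. Calls were higher for 14 of 15 tested macrophage markers, 10 of 10 stellate, 4 of 4 cholangiocyte, 8 of 9 endothelial and 3 of 3 neutrophil markers. Over all tested genes 63.9% were called higher and 10.3% lower. Of these tested markers 4, 7, 3, 0 and 3 were under 1 FPKM in both chow groups, so that they were tested only because they were high on the CDAHFD and their calls carry no weight. Summed hepatocyte markers were 51318 to 62034 in NC sham and 42108 to 46837 in CDAHFD sham, with 7 of 14 called lower and none higher. None of 13 lymphocyte markers and 1 of 9 markers of adipose tissue, pancreas and muscle reached the level for a test. Krt19, Cd3e, Cd79a and S100a8, of cholangiocytes, T cells, B cells and neutrophils, were at 0 in at least 1 NC sham sample, while Adgre1, Cd68, Col1a1 and Stab2 were above 0 in every sample. The part of these cells in the peroxisomal differences was not tested, and in whole liver RNA fewer hepatocytes and less RNA per hepatocyte cannot be told apart.

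**Figure D3:**
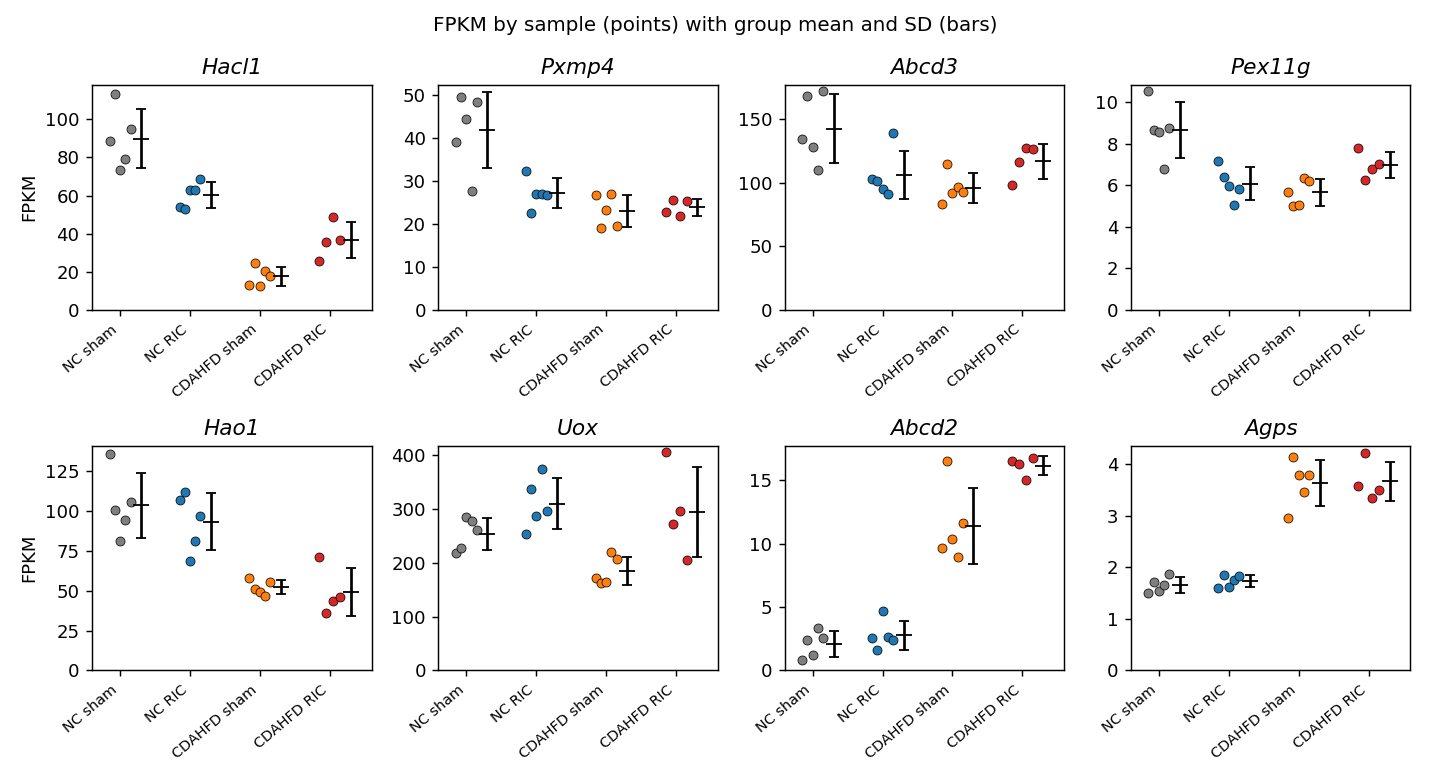
FPKM of 8 peroxisomal genes in each sample, by group, with the group mean and SD (n = 5, or 4 for CDAHFD RIC) beside the points. Hacl1 falls from a mean of 89.7 in NC sham to 17.6 in CDAHFD sham and stands at 36.5 in CDAHFD RIC.

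Conditioning on the CDAHFD, the comparison named in the title of the study, came with fewer calls among these genes. Of the 35 genes 5 were called higher in CDAHFD RIC than in CDAHFD sham (Hacl1, Uox, Pex3, Pex7 and Amacr) and 2 lower (Pex5 and Pex10), beside 27.3% of all tested genes called (8.72% higher and 18.6% lower). The median log2 difference was 0.10, against -0.08 for all tested genes. Enzymes and transporters held 3 higher and no lower call among 22, and peroxins 2 and 2 among 13. Median-ratio scaling, which moved the median gene to 0.00, called 12 members higher and 1 lower, and a common sum per sample called 6 and 0. The 8.72% and 18.6% belong to the values as deposited, so these member counts have no matching share beside them.

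Hacl1 and Uox kept this call in every alternative and with any 1 sample left out. Hacl1 read 25.4, 35.7, 48.6 and 36.4 FPKM in CDAHFD RIC, all above the 12.7 to 24.3 of CDAHFD sham. The mean was 2.08-fold higher (log2 difference 1.02, SE 0.19, adjusted p = 0.00102) and still below NC sham, where the lowest sample was at 73.2 FPKM. Uox read 406, 272, 296 and 205 FPKM in CDAHFD RIC, of which only the lowest lay within the CDAHFD sham range (log2 difference 0.64, SE 0.16, adjusted p = 0.00793). Hao1 read 70.9, 35.8, 43.8 and 46.3 and did not pass (log2 difference -0.12, 95% confidence interval -0.49 to 0.24). Abcd2 at 16.5, 16.3, 15 and 16.7 FPKM did not pass either (log2 difference 0.50, adjusted p = 0.121), and Agps differed by 0.01 (95% confidence interval -0.16 to 0.18).

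The peroxin calls of this comparison were less stable. Pex5 fell by 0.27 (adjusted p = 0.0433) and lost the call in each of the 10 alternative settings. Pex10 fell from 2.02 ± 0.273 FPKM (SD, n = 5) to 1.32 ± 0.258 (n = 4; log2 difference -0.38, adjusted p = 0.0149). Its call was lost with a common sum per sample, and without CDAHFD RIC sample 3 (adjusted p = 0.0597). Pex3 rose from 5.20 ± 1.19 to 7.30 ± 0.753 FPKM (a difference of 0.44, adjusted p = 0.0279) and Pex7 from 4.66 ± 0.474 to 5.86 ± 0.695 (0.28, adjusted p = 0.0229). Amacr rose from 30.9 ± 1.46 to 36.3 ± 2.92 FPKM (0.22, adjusted p = 0.0278), with 1 CDAHFD RIC sample, at 32.4, inside the CDAHFD sham range. The 3 calls were each lost when single samples were left out, 5 of 19 for Pex3 and for Amacr (CDAHFD sham samples 1, 3 and 4 and CDAHFD RIC 2 and 3 for the former, CDAHFD sham 4 and 5 and CDAHFD RIC 1, 3 and 4 for the latter) and 4 for Pex7 (CDAHFD sham 1 and 3, CDAHFD RIC 1 and 4), with adjusted p up to 0.0803, 0.0841 and 0.0801. Without CDAHFD sham samples 2 and 5, the calls of Pex5 and Amacr were lost and the other 5 remained. Summed macrophage markers were 963 to 1188 FPKM in CDAHFD sham and 792 to 1537 in CDAHFD RIC (4 of 15 called higher), stellate cell markers 136 to 257 and 111 to 182 (4 of 10 called lower), endothelial markers 28.2 to 47.2 and 15.7 to 42.5 (1 of 9 lower), neutrophil markers 14.6 to 37.8 and 14.2 to 21.1 (1 of 3 lower) and cholangiocyte markers 149 to 493 and 105 to 393 (none called of 4). Hepatocyte markers summed to 42108 to 46837 and 40207 to 52942, with 3 of 14 called higher and 4 lower. Over all tested genes this comparison called 8.72% higher and 18.6% lower. The part of these shifts in the conditioning differences was not tested.

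The same procedure on chow gave no member a higher call and 2 a lower one, beside 1.18% of all tested genes called (0.321% higher and 0.86% lower). At an unadjusted p under 0.05, 1747 of all tested genes differed, against 125 after adjustment. Pex11g fell from 10.6, 8.67, 8.57, 6.76 and 8.75 FPKM in NC sham to 7.19, 6.38, 5.96, 5.03 and 5.81 in NC RIC, with only the highest NC RIC sample above the lowest NC sham sample (log2 difference -0.45, SE 0.10, adjusted p = 0.0445). Pxmp4 fell to 32.3, 22.5, 27.0, 27.0 and 26.7 FPKM (log2 difference -0.59, SE 0.14, adjusted p = 0.0496). Both calls lay at the threshold: neither passed under median-ratio or quantile scaling or without the filter on low values, and they remained in 5 and 4 of the 19 fits with 1 sample left out. The median over the 35 genes was -0.20, against -0.06 for all tested genes, and 28 lay below the latter. Hacl1 was 53.9, 52.9, 62.9, 62.6 and 68.8 FPKM in NC RIC, each below the NC sham samples, yet did not pass over all genes (log2 difference -0.56, SE 0.18, adjusted p = 0.126). Pex11a, at 73.7 ± 15.4 in NC sham and 49.4 ± 3.90 in NC RIC, also did not pass (adjusted p = 0.0777). Summed hepatocyte markers were 65686 to 76089 FPKM in NC RIC, above the 51318 to 62034 of NC sham, and 1 of 14, Alb, which makes up most of the sum, was called higher. The median log2 difference of the 14 was -0.11, and 9 lay below the median of all tested genes. The part of hepatocyte RNA in the lower peroxisomal values was not tested.

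**Figure D4:**
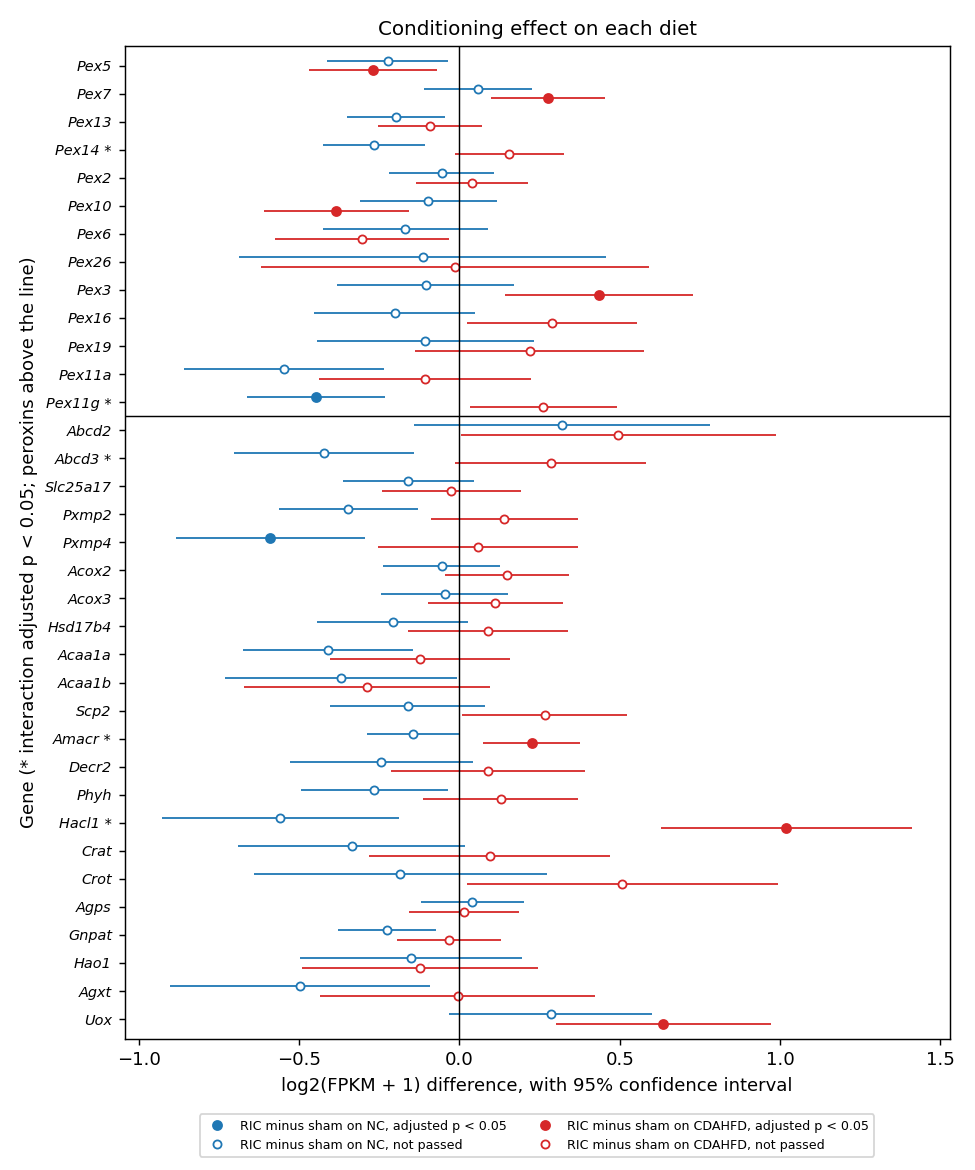
Log2 difference of RIC minus sham with its 95% confidence interval for 35 genes, on NC (blue) and on CDAHFD (red); filled points passed at adjusted p < 0.05 and an asterisk marks a called interaction. Hacl1 lies at -0.56 on NC and at 1.02 on CDAHFD.

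Whether conditioning acted differently on the 2 diets was tested directly as an interaction, the log2 difference on CDAHFD minus that on chow. There were 5 called genes, all with the difference on CDAHFD the higher one (Hacl1, Pex11g, Abcd3, Pex14 and Amacr), and none the other way, beside 6.72% of all tested genes called (3.59% higher and 3.13% lower). The median over the 35 genes was 0.32, against -0.03 for all tested genes, and 4 lay below the latter. The 5 calls were the same under median-ratio and quantile scaling, and a common sum per sample called 8. Over all genes the common sum called 604 higher and 141 lower, in place of 380 and 331. The values of the 2 conditioning comparisons stand side by side here because the interaction is their difference.

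Hacl1 had the largest interaction of the 35 genes, 1.58 (SE 0.26, adjusted p = 0.00181), from -0.56 on chow and 1.02 on CDAHFD. Pex11g had 0.71 (SE 0.15, adjusted p = 0.00983), from -0.45 on chow and 0.26 on CDAHFD, where CDAHFD RIC samples read 7.80, 6.27, 6.79 and 7 FPKM against 5.66, 4.98, 5.06, 6.37 and 6.18 in CDAHFD sham. These 2 calls held with any sample left out and in all 9 alternative settings. Pex11g shares 41.10% of its exonic bases with Gm44775 on the opposite strand, which was listed at no more than 0.968 FPKM in any sample. No source used here says whether counting used strand, so reads of the 2 genes cannot be told apart.

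Abcd3 had an interaction of 0.71 (SE 0.19, adjusted p = 0.0363). It read 103, 101, 95.5, 91.6 and 139 FPKM in NC RIC, the last far above the other 4, and 98.0, 116, 127 and 126 in CDAHFD RIC. Pex14 had 0.42 (SE 0.11, adjusted p = 0.0306), with 5.02, 5.55, 4.76, 5.11 and 4.59 FPKM in NC sham and 4.16, 3.56, 4.30, 3.87 and 4.08 in NC RIC. On CDAHFD it read 6.20, 6.78, 6.07, 5.23 and 6.39 in the sham samples and 6.14, 7.84, 7.03 and 6.77 in the conditioned ones. All NC RIC values of Pex14 were below all NC sham values, while the CDAHFD groups overlapped. Pex14 shares 28.32% of its exonic bases with Gm17029 on the opposite strand, listed at no more than 0.245 FPKM. Amacr had 0.37 (SE 0.10, adjusted p = 0.0318), with 27.0, 26.6, 29.2, 29.1 and 30.1 FPKM in NC RIC and 36.4, 32.4, 36.9 and 39.4 in CDAHFD RIC. These 3 calls lay near the threshold, and each was lost when any 1 of several samples was left out. The Pex14 call was lost without NC sham 2, NC RIC 2, CDAHFD sham 3, CDAHFD RIC 2 or CDAHFD RIC 3 (adjusted p up to 0.0686). That of Amacr was lost without NC sham 3 or 5, NC RIC 1 or 2, CDAHFD sham 4 or 5 or CDAHFD RIC 3 or 4 (up to 0.0624). Abcd3 kept its call only without NC sham 1, 3 or 4, NC RIC 5, CDAHFD sham 2 or 4 or CDAHFD RIC 1 (otherwise up to 0.0707), and lost it without the filter on low values. Pxmp4 (0.65, adjusted p = 0.0631), Pxmp2 (0.49, adjusted p = 0.0586) and Pex3 (0.54, adjusted p = 0.0946) did not pass.

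The diet comparison in conditioned mice completed the design. Of the 35 genes 20 were called higher and 4 lower in CDAHFD RIC than in NC RIC, beside 70.3% of all tested genes called (63.6% higher and 6.68% lower), with a median of 0.29 against 0.42 for all tested genes. Without Pex10, 19 were higher. Median-ratio scaling gave 3 higher and 17 lower, quantile normalization 5 and 8, and a common sum 25 and 2. Over all genes median-ratio scaling gave 2673 higher and 2597 lower, and quantile normalization 2547 and 2854, in place of 6728 and 707. Such counts are not given here for the common sum. Of the 24 calls 4 held in all alternatives and left-out samples: Abcd2 (log2 difference 2.24, adjusted p = 1.25e-07) and Agps (0.77, adjusted p = 1.48e-07) were higher, and Hacl1 (-0.73, adjusted p = 0.00188) and Hao1 (-0.93, adjusted p = 0.000128) lower. The other 2 lower calls, Pex13 (-0.20) and Scp2 (-0.28), were lost in some alternatives, and quantile normalization put Scp2 at 0.22. Of the 8 beta-oxidation genes 7 were called higher as deposited, from 0.21 for Acox2 to 0.77 for Acaa1b. Without CDAHFD sham samples 2 and 5, which enter this comparison only through the shared estimate of spread, Acox2 and Hsd17b4 no longer passed.

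The median log2 difference of peroxins minus that of the enzymes and transporters was 0.04 for diet in sham mice, -0.06 for conditioning on CDAHFD, 0.05 for conditioning on chow, 0.05 for diet in conditioned mice and -0.12 for the interaction. These differences had no stable direction: quantile normalization gave -0.15 for diet in sham mice and -0.29 in conditioned mice, and leaving out CDAHFD sham samples 2 and 5 gave 0.14 for conditioning on CDAHFD, 0.076 for the interaction and -0.045 for diet in sham mice. Summed FPKM of the 13 peroxins were 227 ± 22.0 in NC sham and 185 ± 10.9 in NC RIC, and 237 ± 16.8 in CDAHFD sham (SD, n = 5 each) and 243 ± 27.3 in CDAHFD RIC (n = 4). Those of the 23 enzymes and transporters were 3925 ± 378, 3372 ± 247, 3202 ± 189 and 3493 ± 223. No test was made of the classes, since the list was drawn up with results of these data known.

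Other genes of the organelle gave 8 higher and 14 lower calls among 36 of 40 tested in the diet comparison of sham mice, beside 63.9% and 10.3% of all tested genes. Catalase (Cat), which degrades hydrogen peroxide, fell by 0.33 on the diet (adjusted p = 0.00447). Ehhadh, a bifunctional enzyme of the cycle, ranged from 315 to 1003 FPKM within NC sham alone and passed only in the diet comparison of conditioned mice (1.49, adjusted p = 0.00443). Among the strongest diet calls as deposited, Nudt19, a CoA hydrolase (1.14), and Fis1, of organelle fission (0.57), rose. Of the same calls, Baat, which conjugates bile acids (-0.82), Idh1 (-0.62) and Pipox, an oxidase of pipecolic acid (-0.82), fell. The median of all tested genes was 0.45, and these calls were not followed under other scalings.

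Conditioning on CDAHFD called 6 of these 36 higher, among them Acad11, Acot3, Nudt12, Acot4 and Eci2, and called Tysnd1, a processing protease, lower, beside 8.72% and 18.6% of all tested genes. Acot3, an acyl-CoA thioesterase, had the largest difference, from 3.34 ± 1.33 FPKM in CDAHFD sham (SD, n = 5) to 12.3 ± 8.74 in CDAHFD RIC (n = 4; log2 difference 1.49, adjusted p = 0.0044). None passed for conditioning on chow by limma at an adjusted p under 0.05. The interaction called 8 of the 36, all higher on CDAHFD, beside 3.59% of all tested genes higher, among them Acot3 (1.75), Acot4 (1.34), Acad11 (0.89), Slc27a2 (0.55) and Nudt12 (0.43). The diet comparison in conditioned mice called 14 of the 36 higher and 7 lower, beside 63.6% and 6.68% of all tested genes.

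The RNA of PPARα itself was lower on the diet and higher with conditioning on it. Ppara was 17 ± 2.98 FPKM in chow-fed sham mice and 16.4 ± 3.23 in chow-fed conditioned mice (SD, n = 5 each), against 7.35 ± 2.53 in CDAHFD sham (n = 5) and 20.7 ± 5.90 in CDAHFD RIC (n = 4). Its diet difference was -1.14 (adjusted p = 4.22e-05), rose with conditioning on CDAHFD by 1.38 (adjusted p = 0.000265) and had an interaction of 1.42 (adjusted p = 0.00779). Rxra, its partner receptor, rose with conditioning on CDAHFD by 0.51 (adjusted p = 0.00208), and Ppargc1a, a coactivator of oxidative genes, by 1.09 (adjusted p = 0.00173). Rxrb, the sister receptor, differed by 0.14 and did not pass. No relation between these levels and those of the peroxisomal genes was tested.

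Mitochondrial beta-oxidation, the parallel pathway for shorter chains, gave 5 higher and 2 lower calls among 17 genes for diet in sham mice, beside 63.9% and 10.3% of all tested genes. It gave 4 higher for conditioning on CDAHFD (8.72% of all), 1 lower for conditioning on chow (0.86%) and 3 higher for the interaction (3.59%). Diet in conditioned mice gave 13 higher and 1 lower (63.6% and 6.68%). Acsl1, which activates fatty acids, fell on the diet from 88.7 ± 19.1 to 19.9 ± 7.42 FPKM (SD, n = 5 each; log2 difference -2.17, adjusted p = 1.21e-07), while Acadl, a dehydrogenase of long chains, rose from 105 ± 9.76 to 201 ± 30.9 (0.92, adjusted p = 1.92e-06). Hadh and Acads, enzymes of short chains, rose by 0.28 and 0.69 as deposited (adjusted p = 0.00126 and 0.00328). The median of all tested genes was 0.45, so Hadh lay below it. Calls of single genes in this list were not followed under other scalings.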

How the data were processed

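Total RNA of 19 mouse liver samples was extracted with Trizol and made into libraries with a VAHTS kit, per the labels' protocols. FastQC 0.11.9, Trimmomatic 0.38, HISAT2 2.2.1, HTSeq 0.13.5, R 3.4.1, DESeq2 1.18.1 and the mm10 build are listed, with no step given for any of them, per the submitters' processing notes. Expression was deposited by the authors as FPKM in 1 table of the series. The program and annotation behind it, and the use of strand, are not stated. FPKM give no counts, so no count model was used.

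Of 55335 entries, 3225 without a name (0.123% to 0.204% of a sample's FPKM) were left out. The mean FPKM had to be at least 1 over all samples, which left 10577 genes to test. Group means of log2(FPKM + 1) were fitted in limma 3.58.1 (R 4.3.3; eBayes with trend, following lmFit) for the 4 groups, which left 15 residual degrees of freedom. Tests were two-sided, with p-values adjusted by Benjamini-Hochberg over these genes. The added 1 makes differences of low genes too small. FPKM sums were 418101 to 511333 a sample. Depth was estimated from the step between low values of single-exon genes; 25.3% to 27.2% of low values lay within 2% of whole reads, so reads were not recovered. The script was tested on simulated data, with 100 genes changed by each amount. It recovered 47% to 65% of log2 changes of 0.5 and 89% to 98% of changes of 1, depending on the comparison. Far fewer genes changed in the simulation than the 7852 called for diet in sham mice, so these rates need not hold there. A gene that did not pass may still differ, and its confidence interval gives the range. For conditioning on CDAHFD the 95% interval was -0.16 to 0.18 for Agps and 0.02 to 0.99 for Crot, neither of which passed. Positions and exon overlaps came from GENCODE vM21 (mm10) and promoters from RefSeq (GRCm38.p6), with python 3.11.15, pandas 2.3.3 and numpy 2.4.6; plots used matplotlib 3.10.9.

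The members and gene lists were chosen with earlier results of these data known. All 36 members are named. Of 40 other peroxisomal genes, 7 set ones, the 6 with the smallest diet p and those that passed a conditioning or interaction test were to be named, and of the PPARα and mitochondrial lists up to 4 with the smallest diet p. Some of these genes are counted in their list but not reported here by name. Alternatives were a pseudocount of 0.1, a filter at 0.1 or none, 3 other scalings, sample weights, only the groups compared, a replicate block, and leaving out samples. They were followed gene by gene for the members only, so single calls in the other lists were not checked against them. A call kept its direction unless the sign changed with a call in either fit.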

Additional observations from a re-analysis of the deposited data

Results flagged for a closer look

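In groups of 4 or 5 samples, 9 of 144 combinations of gene and group had 1 sample far from the others, and chance flags about 1 in 20 groups. In NC sham, sample 3 was low for Pex5 (11.8 FPKM, the others 14.1 to 15) and Pex3 (5.27, the others 6.88 to 7.49), sample 1 was high for Slc25a17 (19 FPKM, the others 14.3 to 14.9) and sample 4 for Far1 (0.248 FPKM, the others 0.0384 to 0.0827). In NC RIC, sample 5 was high for Abcd3 (139 FPKM, the others 91.6 to 103) and sample 2 low for Pxmp2 (42.3 FPKM, the others 50.7 to 52.8). In CDAHFD sham, sample 3 was low for Pex2 (22.9 FPKM, the others 26.3 to 26.6) and sample 5 for Decr2 (50.3 FPKM, the others 77 to 86.4). In CDAHFD RIC, sample 1 was low for Hsd17b4 (121 FPKM, the others 176 to 183).

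The conditioning difference on CDAHFD exceeded that on chow, by the interaction in limma at an adjusted p under 0.05, for 5 of the 35 tested members and 8 of 36 other peroxisomal genes, beside 3.59% of all tested genes. Among the members the excess on the log2 scale was 1.58 for Hacl1, 0.71 for Pex11g, 0.71 for Abcd3, 0.42 for Pex14 and 0.37 for Amacr. Among the other genes it was, for example, 1.75 for Acot3, 1.34 for Acot4, 0.89 for Acad11, 0.55 for Slc27a2 and 0.43 for Nudt12.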

How the results depend on the processing

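Calls kept on their side of the threshold in every setting and with any 1 sample left out were 10 of 22 for diet in sham mice, 2 of 7 for conditioning on CDAHFD, 0 of 2 for conditioning on chow, 4 of 24 for diet in conditioned mice and 2 of 5 for the interaction. Causes of the changes were not tested. Counts of members and of all genes are given as called higher and lower. A pseudocount of 0.1 left 1 member lower for conditioning on CDAHFD. Without a filter 29754 genes were tested in place of 10577, so the counts over all genes are parts of a larger total. Of these, 11037 were higher for diet in sham mice and 10131 in conditioned mice. In that setting 1 member was lower for conditioning on CDAHFD, and conditioning on chow gave 15 and 33 genes and 0 members lower. A filter at 0.1 also tested more genes than the main fit. It gave 10223 genes higher for diet in sham mice, 1 member lower for conditioning on CDAHFD, and 19 and 49 genes and 0 members lower on chow.

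A common sum gave 990 genes and 0 members lower for conditioning on CDAHFD, 2 members lower for diet in conditioned mice, and 604 and 141 genes and 8 members higher for the interaction. Median-ratio scaling gave 3227 and 3222 genes and 3 and 25 members for diet in sham mice, 1063 genes lower and 12 and 1 members for conditioning on CDAHFD, 79 and 48 genes and 0 members lower on chow, and 2673 and 2597 genes and 3 and 17 members for diet in conditioned mice. It reversed the diet difference in sham mice for Pex14 (-0.25), Pex2 (-0.53), Pex19 (-0.16), Pex11a (-0.49), Slc25a17 (-0.41), Acox2 (-0.56), Acox3 (-0.0098), Acaa1a (-0.16), Decr2 (-0.56), Crat (-0.033), Gnpat (-0.26) and Agxt (-0.49). In conditioned mice it reversed Pex7 (-0.28), Pex2 (-0.41), Pex16 (-0.16), Pex11a (-0.027), Pex11g (-0.31), Abcd3 (-0.41), Slc25a17 (-0.25), Pxmp2 (-0.42), Acox2 (-0.34), Hsd17b4 (-0.29), Amacr (-0.21), Decr2 (-0.21) and Gnpat (-0.047).

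Quantile normalization gave 3116 and 3428 genes, 4 and 19 members and a peroxin minus enzyme median of -0.15 for diet in sham mice, 1481 genes higher and 9 and 1 members for conditioning on CDAHFD, 21 genes and 0 members lower on chow, and 2547 and 2854 genes, 5 and 8 members and a class difference of -0.29 for diet in conditioned mice. It reversed Pex14 (-0.27), Pex2 (-0.36), Slc25a17 (-0.25), Acox2 (-0.35), Acox3 (-0.20) and Gnpat (-0.21) in sham mice. In conditioned mice it reversed Pex7 (-0.30), Pex2 (-0.28), Pex10 (-0.19), Pex11g (-0.31), Slc25a17 (-0.13), Acox2 (-0.13), Acox3 (-0.015), Scp2 (0.22) and Amacr (-0.022).

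Sample weights left 1 member lower for conditioning on CDAHFD, and gave 102 and 299 genes and 6 members lower on chow, and 575 genes and 8 members higher for the interaction. With only the groups compared, conditioning on CDAHFD gave 543 genes higher and 3 and 1 members, and conditioning on chow 11 and 35 genes and 0 members lower. Without CDAHFD sham samples 2 and 5, conditioning on CDAHFD left 1 member lower with a class difference of 0.14, and the interaction gave 760 and 506 genes with a class difference of 0.076. The replicate block left 1 member lower for conditioning on CDAHFD, and 20 and 59 genes and 1 member lower on chow. Deviations of same-numbered samples correlated at -0.174 to 0.176 over 27 pairs, 6 of them over 0.1. Samples with different numbers gave -0.327 to 0.233 over 108 pairs, 14 of them over 0.1. Correlations this weak do not settle whether the numbers pair the samples.

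With 1 sample left out, conditioning on CDAHFD gave 1300 to 2151 genes lower, 3 to 7 members higher, 1 to 2 lower and a class difference of -0.13 to 0.071. Conditioning on chow gave 4 to 35 genes higher, 9 to 149 lower and 0 to 2 members lower. Diet in conditioned mice gave 2 to 4 members lower. The interaction gave 235 to 575 genes higher, 188 to 491 lower and 2 to 7 members higher. FPKM carry no counts, so the precision of low genes such as Far1, Pex10, Pex26 and Acox3 is limited by a depth known only as an estimate.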
